A study of Mus musculus with 2 samples.

Results

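The expression of 10 genes of the Notch pathway was examined in the newborn mouse bladder: the receptors Notch1, Notch2, Notch3 and Notch4, the ligands Jag1, Jag2, Dll1 and Dll4, and the target genes Hes1 and Heyl. They were taken by symbol, and each matched 1 of the 43346 mouse gene entries in the files. Total RNA longer than 200 nt had been sequenced from the urinary bladder of 2 pups on postnatal day 0, each giving a single library from 10 ng of starting material. The pups were of strain B6NCrl and were littermates from 1 pregnant female. The labels name no treatment and no genetic change, and sex was not collected. Both pups belong to 1 group, so the data give the level of each gene, its spread over 2 animals and its relation to other genes, and they hold no contrast between conditions. Levels are in TPM, a share of all transcripts that is corrected for transcript length and can be compared between genes. Depth was 32564563 expected counts for pup 2, against 43653931 for pup 1. A gene was called detected where each pup had at least 1 TPM, and 8 of 8 smooth muscle markers and 6 of 6 superficial urothelium markers of the labelled tissue were detected. In bulk tissue, fewer cells of a type and less RNA per cell cannot be told apart.

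Notch receptors are single-pass membrane proteins that are activated by ligands on a neighbouring cell. Ligand binding exposes the receptor to cleavage by an ADAM protease and then by the gamma-secretase complex, and the freed intracellular domain enters the nucleus, where it joins the DNA-binding protein Rbpj and a Mastermind protein to switch on target genes such as those of the Hes and Hey families. The pathway is best known for sorting cell fates between neighbours, for arterial specification and for the differentiation of vascular smooth muscle.

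All 10 genes were detected, where 58.5% of the 21474 annotated protein-coding genes were. Hes1 was the highest at 32.9 ± 8.89 TPM (mean ± SD, n = 2 pups here and below), followed by Notch2 at 16.6 ± 2.21 TPM and Jag1 at 7.93 ± 0.255 TPM. The values of each of these 3 genes did not overlap those of the next gene in order. Heyl at 5.03 ± 0.262 TPM and Notch1 at 5.02 ± 0.0283 TPM overlapped each other. Below them came Dll4 at 3.06 ± 0.0495 TPM, which was narrowly apart from Notch4 at 2.82 ± 0.283 TPM. Notch4, Jag2 at 2.72 ± 0.247 TPM and Notch3 at 2.70 ± 0.0566 TPM could not be ordered, since the values of neighbours overlapped, and Dll1 was lowest at 1.39 ± 0.368 TPM. The median of the 12568 detected protein-coding genes was 14.3 TPM, so 8 of the 10 genes lay below the typical expressed gene. Only Hes1 and Notch2 lay above it, with 71.4% and 54% of expressed genes below them.

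**Figure D1:**
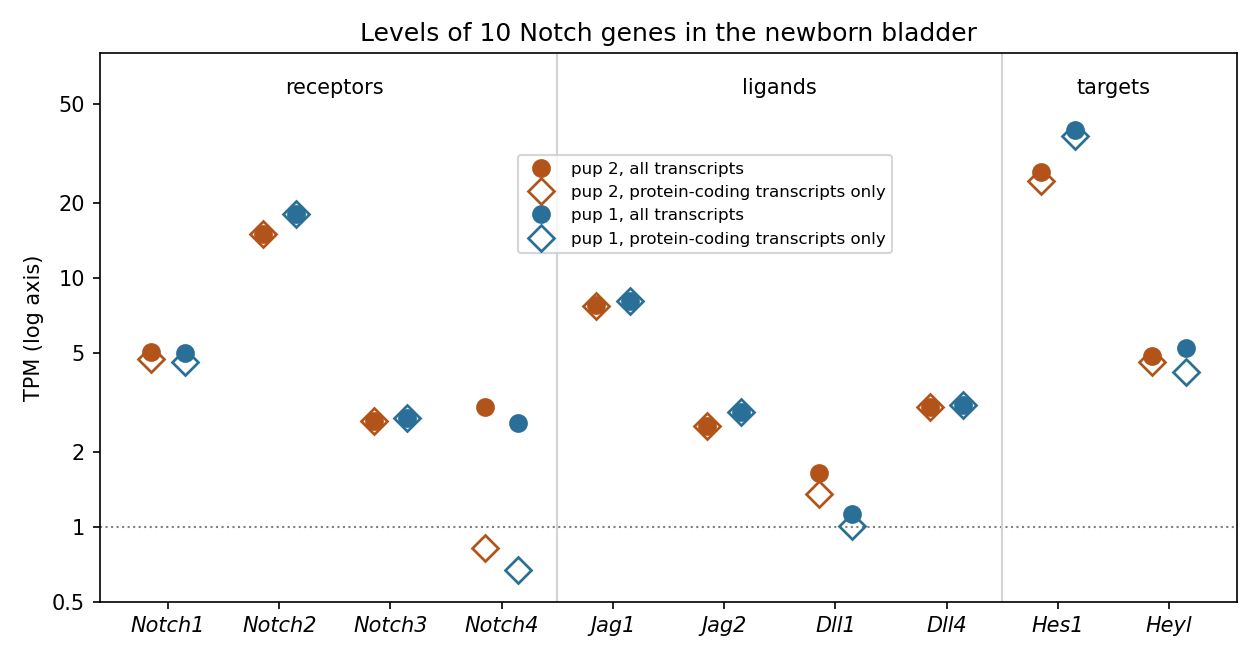
TPM of the 10 genes on a log axis, with pup 2 left of pup 1; filled circles count all transcripts of a gene and open diamonds only its protein-coding transcripts, and the dotted line marks 1 TPM. The circles and diamonds coincide for most genes but part for Notch4, whose diamonds sit at 0.82 TPM in pup 2 and 0.67 TPM in pup 1.

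Among the receptors, Notch2 was the most abundant. Notch2, a broadly expressed receptor, lies on chromosome 3 from 98013527 to 98150361 (mm10, GENCODE M21, as are all gene positions here) and had 15 TPM in pup 2 and 18.13 TPM in pup 1, on 3734 counts in pup 2 and 5647 in pup 1. It made up 58.3% of the summed TPM of the 4 receptors in pup 2 and 63.6% in pup 1, and stood 2.98-fold above Notch1 in pup 2 and 3.63-fold above it in pup 1. With the deposited posterior mean TPM these folds were 1.85 in pup 2 and 2.2 in pup 1, since Notch1 then had 7.91 TPM in pup 2 and 8.10 TPM in pup 1 and overlapped Jag1, with 7.63 TPM in pup 2 and 8 TPM in pup 1. The lower value of Notch2 was above the higher value of each other receptor in either unit.

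Notch1, the receptor that arterial endothelium and many epithelia use, lies on chromosome 2 from 26457903 to 26516663. It had 5.04 TPM in pup 2 and 5 TPM in pup 1. That was the closest pair of the 10 genes in TPM, but not in the scaled counts given below. Of its 11 annotated transcripts, the full-length coding Notch1-201 of 9488 nt took 97.4% of the counts of the gene in pup 2 and 97.6% in pup 1. The 3′ end of Notch1 is overlapped on the opposite strand by Gm13568, over 414 nt with 42.7 counts in pup 2 and 69 in pup 1, and by 0610009E02Rik, over 1488 nt with 93.4 counts in pup 2 and 107 in pup 1. Whether counting used strand is not given in the sources used here, so reads of the overlap cannot be told apart, but these counts were small beside those of Notch1, 1093 in pup 2 and 1324 in pup 1.

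Notch3, the receptor of vascular smooth muscle and pericytes, lies on chromosome 17 from 32120820 to 32166852 and had 2.66 TPM in pup 2 and 2.74 TPM in pup 1, from the 1 transcript annotated, which is coding. The antisense gene Gm17276, which overlaps it, had 17 counts in pup 2 and 16.1 in pup 1, against 506 in pup 2 and 652 in pup 1 for Notch3. The values of Notch3 lay below those of Notch1 in both animals.

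Notch4, a receptor best known from endothelium, lies on chromosome 17 from 34564268 to 34588503, and its gene-level value did not describe its full-length transcript. The gene had 3.02 TPM in pup 2 and 2.62 TPM in pup 1, on 147 counts in pup 2 and 157 in pup 1, and its transcripts split very unevenly. The coding transcript Notch4-201, of 6591 nt and 30 exons, took 86.8% of these counts in pup 2 and 82.5% in pup 1, but 27.2% of the TPM in pup 2 and 25.6% in pup 1, which left it at 0.82 TPM in pup 2 and 0.67 TPM in pup 1. The rest of the TPM, 72.8% in pup 2 and 74.4% in pup 1, came from transcripts without a protein-coding biotype, on 19.4 counts in pup 2 and 27.5 in pup 1. Nearly all of it lay in short fragments, since the long Notch4-211, of 6380 nt, had 0 counts in pup 2 and 8.27 counts and 0.04 TPM in pup 1. The gene value was 3.68-fold the coding value in pup 2 and 3.91-fold in pup 1. Such a gap was uncommon: over 50% of the TPM lay in transcripts without a protein-coding biotype in both pups for 6.95% of the 12568 expressed protein-coding genes, and 2.83% of them fell below 1 TPM in a pup once only coding transcripts were counted, Notch4 among them. By coding transcripts, 9 of the 10 genes were detected and Notch4 was the lowest, with 3.53% of summed receptor TPM in pup 2 and 2.56% in pup 1, in place of 11.7% in pup 2 and 9.2% in pup 1 by the gene values.

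The fragments behind this gap are short and lie at both ends of the gene. Notch4-203, of 356 nt, had 4.33 counts and 0.70 TPM in pup 2 and 6.61 counts and 0.86 TPM in pup 1, and it joins exon 1 of Notch4-201 directly to exon 3. Its 60 bases around that junction are shown beside the exon 1 to exon 2 junction of the full-length transcript, on the plus strand, with the exon after the junction in capitals, because reads over these junctions are what separates the 2 transcripts.
Notch4-201: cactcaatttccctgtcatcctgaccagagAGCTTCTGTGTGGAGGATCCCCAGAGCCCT
Notch4-203: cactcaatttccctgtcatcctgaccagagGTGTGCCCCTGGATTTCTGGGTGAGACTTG
The lower-case bases are chr17:34564480-34564509 in both, and the capitals are chr17:34565301-34565330 in Notch4-201 and chr17:34565473-34565502 in Notch4-203.

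The other fragments with 10% or more of the gene in a pup begin inside introns. Notch4-209, of 352 nt, is annotated as a retained intron and had 3.45 counts and 0.57 TPM in pup 2 and 3.71 counts and 0.49 TPM in pup 1. It starts with 165 bases of the intron before exon 2. Notch4-210, of 619 nt, had 9.31 counts and 0.75 TPM in pup 2 and 4.70 counts and 0.30 TPM in pup 1, and it starts with 76 bases of the intron before exon 29. Their first bases are shown with the intronic part in capitals and the first 30 bases of the following exon in lower case, since RNA that kept the intron would also carry the capitals.
Notch4-209: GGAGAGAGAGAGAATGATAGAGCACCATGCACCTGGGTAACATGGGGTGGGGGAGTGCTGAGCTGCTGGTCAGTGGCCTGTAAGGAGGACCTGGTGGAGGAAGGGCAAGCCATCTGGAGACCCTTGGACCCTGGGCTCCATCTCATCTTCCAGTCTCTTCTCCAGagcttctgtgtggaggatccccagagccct
Notch4-210: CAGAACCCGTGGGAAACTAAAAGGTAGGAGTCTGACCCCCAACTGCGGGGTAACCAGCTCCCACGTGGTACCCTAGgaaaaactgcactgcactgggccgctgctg
The capitals are chr17:34565136-34565300 in Notch4-209 and chr17:34587041-34587116 in Notch4-210, both on the plus strand of mm10. Sequences are from the GENCODE M21 transcripts, whose lengths matched the deposited ones. With under 10 counts on each fragment in each pup, their shares were too thinly covered to be compared between the animals.

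**Figure D2:**
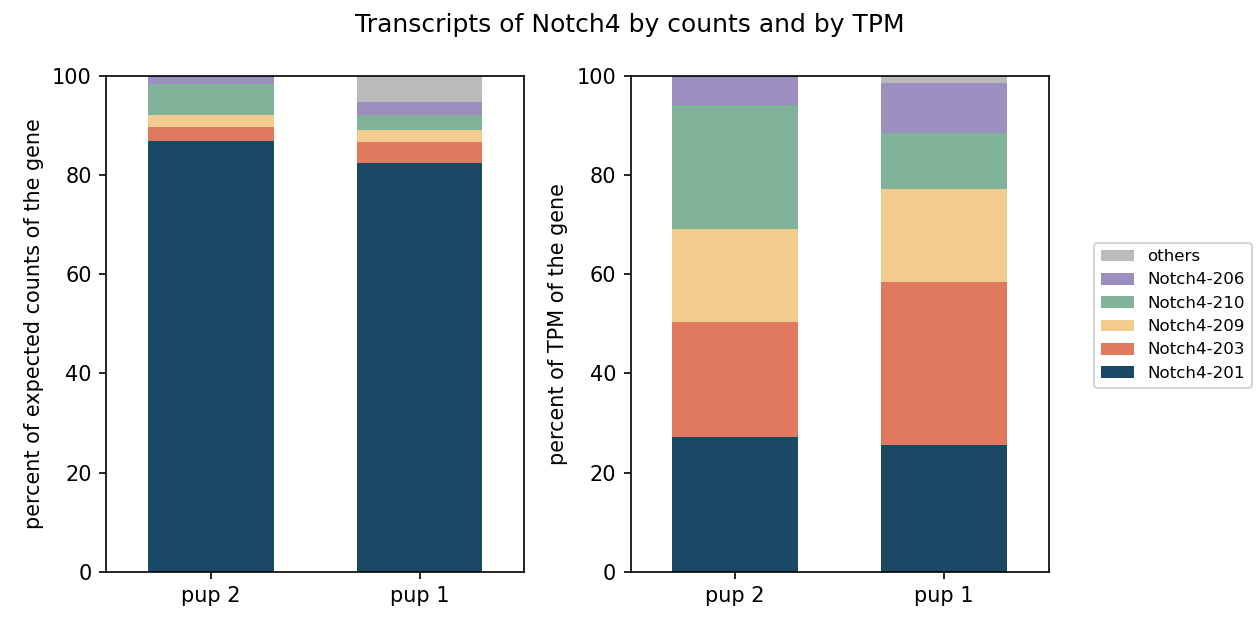
Share of each Notch4 transcript in the expected counts of the gene (left) and in its TPM (right), in percent, with pup 2 left of pup 1. Notch4-201 holds 86.8% of counts in pup 2 and 82.5% in pup 1 but only 27.2% of TPM in pup 2 and 25.6% in pup 1.

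Among the ligands, Jag1 was the most abundant in both pups. Jag1, a Jagged-type ligand known from vascular smooth muscle and epithelia, lies on chromosome 2 from 137081456 to 137116644 and had 7.75 TPM in pup 2 and 8.11 TPM in pup 1. It took 51.7% of the summed TPM of the 4 ligands in pup 2 and 53.2% in pup 1, and stood 2.56-fold above Dll4 in pup 2 and 2.62-fold above it in pup 1. Dll4, the Delta-type ligand of arterial and sprouting endothelium, lies on chromosome 2 from 119325784 to 119335962 and had 3.03 TPM in pup 2 and 3.10 TPM in pup 1. Its values lay narrowly above those of Jag2, so Dll4 was the second ligand by level in these 2 pups. With 2 values per gene, that order is not settled. Gm14207, which overlaps the start of Dll4 on the opposite strand, had 20 counts in pup 2 and 28 in pup 1, against 264 in pup 2 and 339 in pup 1 for Dll4.

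Jag2, the second Jagged-type ligand, lies on chromosome 12 from 112907819 to 112929776 and had 2.55 TPM in pup 2 and 2.90 TPM in pup 1. Its 1 transcript, Jag2-201, was quantified by the authors at 4054 nt, whereas GENCODE M21 gives it 5106 nt. These TPM values rest on the shorter form. Dll1, a Delta-type ligand known from somite patterning, lies on chromosome 17 from 15367354 to 15376872 and had 1.65 TPM in pup 2 and 1.13 TPM in pup 1, on 117 counts in pup 2 and 108 in pup 1. Its coding transcript Dll1-201 alone had 1.35 TPM in pup 2 and 1.01 TPM in pup 1, so the gene sat at the 1 TPM line in pup 1. The remaining 18.2% in pup 2 and 10.5% in pup 1 came from Dll1-204, a retained-intron fragment with 4.69 counts in pup 2 and 2.31 in pup 1. A930024N18Rik, which overlaps Dll1 on the opposite strand, had 7.82 counts in pup 2 and 2.3 in pup 1. Summed over the 4 genes, ligand RNA was 15 TPM in pup 2 and 15.2 TPM in pup 1. Receptor RNA by gene values stood 1.72-fold above it in pup 2 and 1.87-fold above it in pup 1. By posterior mean TPM these folds were 1.89 in pup 2 and 2.05 in pup 1. By coding transcripts alone, receptors summed to 23.2 TPM in pup 2 and 26.1 TPM in pup 1. Ligands then summed to 14.6 TPM in pup 2 and 15.1 TPM in pup 1.

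The targets differed widely in level. Hes1, a transcriptional repressor that answers Notch but also other signals, lies on chromosome 16 from 30064384 to 30067796 and had 26.60 TPM in pup 2 and 39.17 TPM in pup 1, on 821 counts in pup 2 and 1548 in pup 1. Heyl, a repressor of the Hey family known as a Notch3 target in vascular smooth muscle, lies on chromosome 4 from 123233556 to 123249875 and had 4.84 TPM in pup 2 and 5.21 TPM in pup 1. Hes1 was 5.5-fold above Heyl in pup 2 and 7.52-fold above it in pup 1. Hes1 was also above the receptor Notch2 in both animals, and its 2 values were the furthest apart in TPM of the 10 genes.

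Between the littermates, none of the 10 genes was 2-fold apart, where 3.75% of the 15607 genes with enough counts (a mean of 20 or more) were, and none was 1.5-fold apart, where 9.48% were. Differences are log2 ratios of pup 2 over pup 1 of scaled counts, with a 95% exact interval that covers counting error only, since PCR copies are not told apart. The interval excluded equal levels for 5 of the 10 genes, and for 47% of all genes tested, so the 10 genes were near the background in this respect. It lay above 0 for Dll1, Heyl and Notch1 and below 0 for Hes1 and Notch2, where 23.1% of all genes lay above and 23.9% below. The median ratio was 0.06 over the 10 genes and 0.00 over all genes. With 1 library per animal there is no error between libraries to test against, and no p-value was computed.

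Hes1 was lower in pup 2, with a log2 ratio of -0.49 (interval -0.62 to -0.37), or 0.71-fold. Over all genes tested, 4.29% were lower in pup 2 by as much or more. Dll1 had the largest ratio in the other direction, 0.54 (0.15 to 0.93), on far fewer counts. Notch2 had -0.18 (-0.24 to -0.12), Heyl 0.21 (0.04 to 0.39) and Notch1 0.14 (0.03 to 0.26). The intervals of these last 3 genes excluded equal levels, narrowly for Heyl and Notch1, but they leave out error from PCR copies. With 1 library per animal the 3 differences cannot be set against the spread between libraries. In TPM, whose ratios had a median of -0.09 over all genes with enough counts, the ratio of Notch1 was 0.01. That of Hes1 was -0.56 in gene TPM and -0.60 in coding TPM, the latter just past 1.5-fold. The intervals of Notch3 at 0.05 (-0.12 to 0.22), Notch4 at 0.33 (-0.01 to 0.66), Jag1 at 0.03 (-0.09 to 0.15), Jag2 at -0.09 (-0.33 to 0.15) and Dll4 at 0.06 (-0.18 to 0.30) included equal levels. At the depth of Notch4, with 147 counts in pup 2 and 157 in pup 1, the interval reached up to 0.66. No direction is given for these 5 genes.

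**Figure D3:**
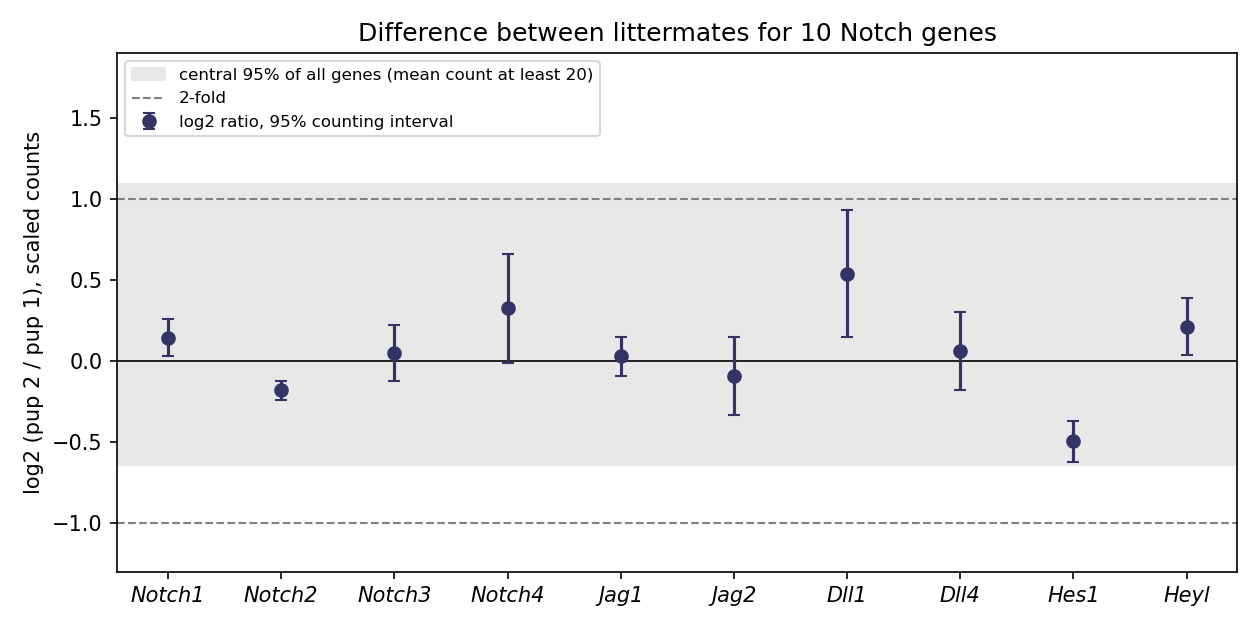
Log2 ratio of pup 2 over pup 1 of scaled counts for the 10 genes, with 95% counting intervals as bars; the grey band is the central 95% of the 15607 genes with enough counts, from -0.64 to 1.09, and dashed lines mark 2-fold. All 10 points lie inside the band, with Hes1 lowest at -0.49 and Dll1 highest at 0.54.

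Other gene lists moved between the pups beside Hes1. All 6 proliferation markers were lower in pup 2, with a median log2 ratio of -0.58 and a summed level of 168 TPM in pup 2 and 242 TPM in pup 1. Of 8 macrophage markers 7 were higher in pup 2, with a median of 1.05 and 725 TPM in pup 2 against 346 TPM in pup 1, and all 5 erythroid markers were higher, with a median of 1.58 and 59101.3 TPM in pup 2 against 21719.4 TPM in pup 1. The lists of the main bladder tissues moved less. In pup 2, 6 of 8 smooth muscle markers (median -0.06) and 5 of 6 fibroblast markers (median -0.11) were lower. All 7 basal urothelium markers (median 0.16) and 4 of 6 superficial urothelium markers (median 0.06) were higher. No marker of these lists was at 0 counts, and their part in the Hes1 difference was not tested. Nrarp, a small feedback inhibitor that is itself a Notch target, had 9.42 TPM in pup 2 and 11.92 TPM in pup 1, with a log2 ratio of -0.24 (-0.40 to -0.09). Its counts carried a posterior SD of 3.7% in pup 2 and 4.29% in pup 1, so part of its reads also matched other genes. Hes1 and Nrarp were thus both lower in pup 2, where 23.9% of all genes tested had an interval below 0. The other Hes and Hey genes with enough counts had intervals that included equal levels. These were Hes6 at 0.05 (-0.10 to 0.21), Hey1 at 0.01 (-0.46 to 0.47) and Hey2 at -0.28 (-0.89 to 0.31). The intervals of Hey1 and Hey2 were wide and also included the ratio of Nrarp, so they cannot decide whether Notch targets fell together. That was not tested.

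The direction of Heyl depended on the unit. Its counts, 491 in pup 2 and 567 in pup 1, gave a log2 ratio of 0.21 after scaling, whereas its gene TPM gave -0.11 and the TPM of its coding transcript 0.13. The median TPM ratio of -0.09 over all genes with enough counts is smaller than this change. The gene TPM of pup 1 included 0.81 TPM from Heyl-202, a fragment of 374 nt with 6.65 counts in pup 1 and 0 in pup 2. Heyl-201, the coding transcript of 4537 nt, had 4.60 TPM in pup 2 and 4.19 TPM in pup 1. No statement on the direction of Heyl can therefore be made from these 2 libraries.

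Most of the machinery around receptors and ligands was present. Of 50 further pathway genes, listed by role, 43 were detected, where 58.5% of annotated protein-coding genes were. None of the 45 with enough counts was 2-fold apart, where 3.75% of all genes with enough counts were. Their levels are gene TPM over all transcripts unless stated. All 9 listed genes of receptor cleavage were detected. They included Furin, the convertase that cuts the receptor during its passage to the surface, at 13.3 ± 0.467 TPM, and the sheddases Adam10 at 43.8 ± 1.26 TPM and Adam17 at 15.5 ± 0.778 TPM. Of the gamma-secretase subunits, Psenen had 109 ± 6.79 TPM, Ncstn 71.3 ± 1.27 TPM and Aph1a 21.3 ± 0.325 TPM. Aph1b at 5.53 ± 0.580 TPM and Aph1c at 3.96 ± 0.608 TPM are closely similar copies that can share reads. The posterior SD of the count, which covers that division, was 1.15% in pup 2 and 0.813% in pup 1 for Aph1b and 3.65% in pup 2 and 3.93% in pup 1 for Aph1c. The listed cleavage genes were thus all above the level of Notch3 by their means.

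Receptors are sugar-modified before they meet ligands, and all 5 enzymes listed for that step were detected. Pofut1, which adds O-fucose, had 3.16 ± 0.163 TPM and Poglut1, which adds O-glucose, 19.8 ± 1.87 TPM. By coding transcripts alone, Pofut1 had 1.89 TPM in pup 2 and 1.82 TPM in pup 1. Poglut1 then had 11.26 TPM in pup 2 and 13.87 TPM in pup 1. The Fringe enzymes, which extend O-fucose and bias receptors between Delta and Jagged ligands, were led by Rfng at 17.5 ± 0.488 TPM, with Lfng at 10.7 ± 0.481 TPM and Mfng at 5.15 ± 0.573 TPM. All 3 Fringe genes were thus expressed, in the same order in both pups.

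Of the ubiquitin ligases that act on ligands in the signal-sending cell, 3 of 4 were detected. Mib1 had 11.4 ± 2.09 TPM and Mib2 9.70 ± 0.332 TPM. Neurl1a had 9.51 TPM in pup 2 and 6.84 TPM in pup 1, with the largest positive ratio of the 45 further genes with enough counts, 0.56 (0.41 to 0.70), and Neurl1b was at 1.03 TPM in pup 2 and 0.83 TPM in pup 1. All 9 genes of receptor turnover were detected, among them Itch at 24.6 ± 0.742 TPM, Numb at 17.7 ± 4.45 TPM and Fbxw7, which marks the nuclear Notch fragment for destruction, at 5.32 ± 0.453 TPM. Nedd4, a ubiquitin ligase with many substrates besides Notch, stood far above the rest at 287.46 TPM in pup 2 and 367.48 TPM in pup 1.

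All 12 genes of the nuclear complex were detected. Rbpj, the DNA-binding partner of every Notch receptor, had 18.25 TPM in pup 2 and 20.41 TPM in pup 1. Of the Mastermind coactivators, Maml2 led at 12.0 ± 1.61 TPM, with Maml1 at 2.54 ± 0.276 TPM and Maml3 at 1.72 ± 0.148 TPM. The corepressor Ncor1 had 85.7 ± 9.04 TPM and the adaptor Snw1 55.5 ± 0.580 TPM. Maml2 was above both of its paralogues in each pup.

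Other ligands and other Hes and Hey genes ranged widely in level. Dlk1, an imprinted relative of the Delta ligands that lacks their receptor-binding DSL domain, had 173.75 TPM in pup 2 and 187.65 TPM in pup 1, which was 11.6-fold the 4 ligands summed in pup 2 and 12.3-fold in pup 1. Dlk2 had 14.1 ± 0.615 TPM. Dll3, a Delta-type ligand of the presomitic mesoderm, had 4 counts in pup 2 and 2 in pup 1. Of the other Hes and Hey genes, Hes6 at 21 ± 0.325 TPM and Hey1 at 1.44 ± 0.0990 TPM were detected, and Hey2 was below 1 TPM at 0.68 TPM in pup 2 and 0.89 TPM in pup 1. Hes2, Hes3, Hes5 and Hes7 had at most 12 counts in a pup. Hes5, a Notch target of the nervous system, had 1 count in pup 2 and 0 in pup 1, and a count of 0 allows up to 3. Of the Hes and Hey genes examined, Hes1, Hes6, Heyl and Hey1 were thus at 1 TPM or more in each pup, and Hey2 had 40 counts in pup 2 and 65 in pup 1.

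**Figure D4:**
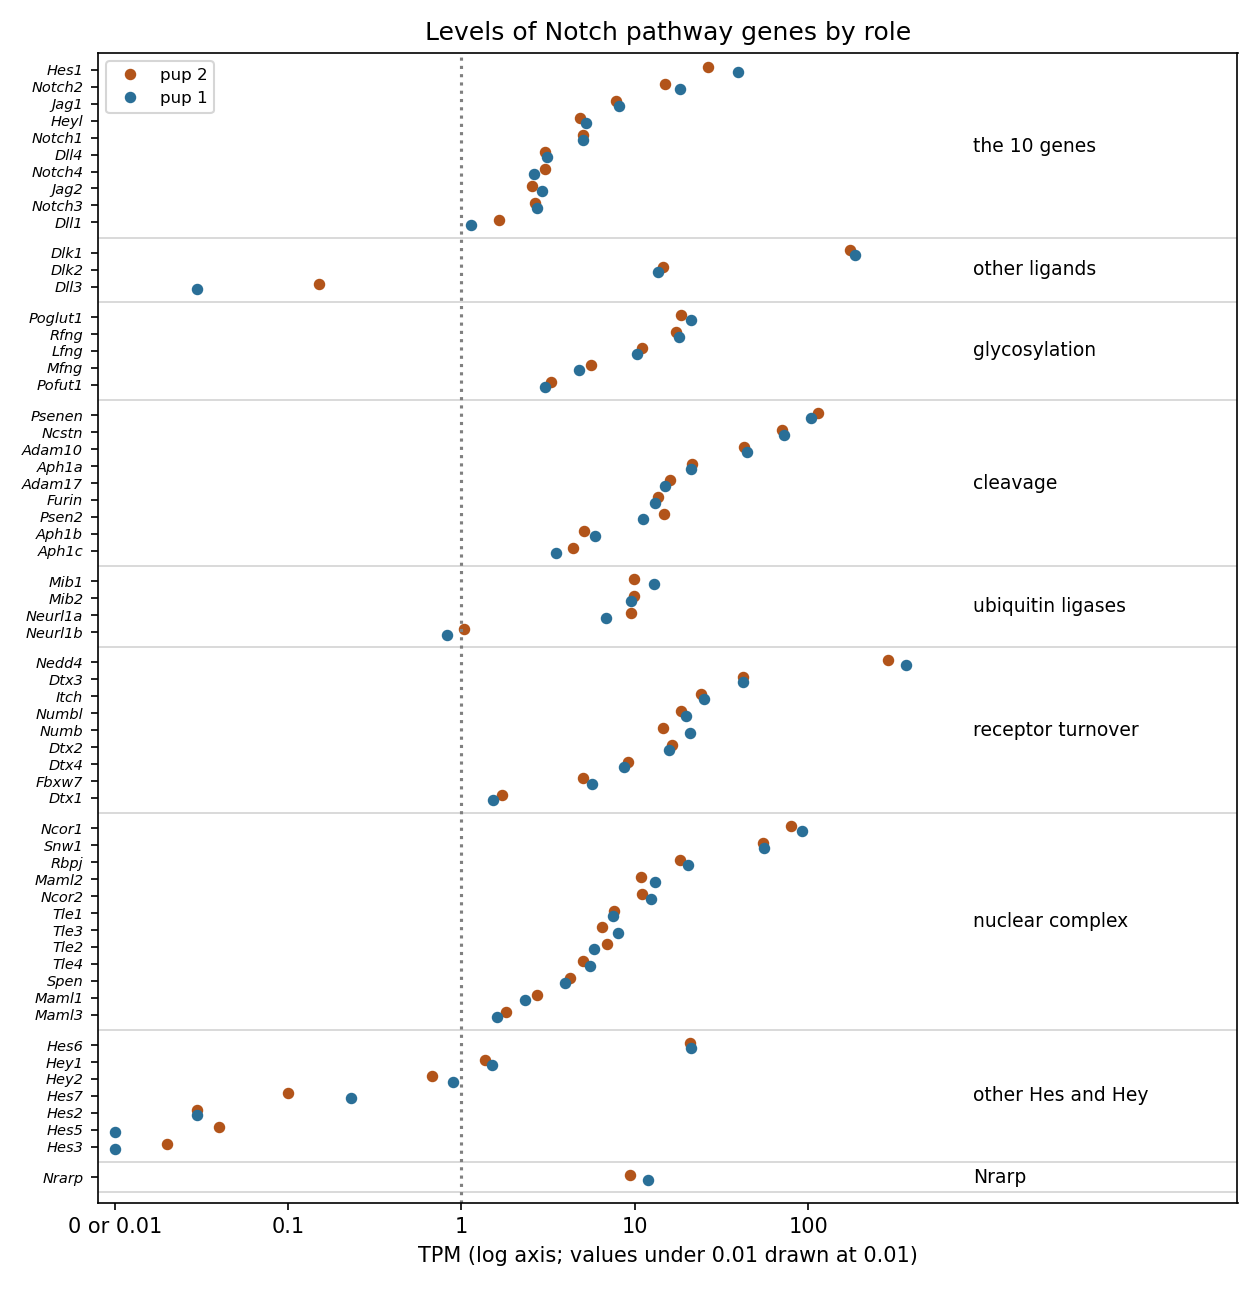
TPM of the 10 genes and of the 50 further pathway genes on a log axis, grouped by role, with pup 2 above pup 1 within each row; the dotted line marks 1 TPM and values under 0.01 TPM are drawn at 0.01. Dlk1, Nedd4 and Psenen stand above 100 TPM in both pups, while Dll3, Hes2, Hes3, Hes5 and Hes7 stand below 1 TPM.

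Several of the 10 genes are known from vessels, and vessel markers were measured beside them. All 10 endothelial markers were detected, with a median of 11.8 TPM, and 5 of 6 arterial markers were, with a median of 6.46 TPM. In the same units Dll4 had 3.06 TPM, Notch1 5.02 TPM and full-length Notch4 under 1 TPM, against 12.0 ± 0.651 TPM for Cdh5, the endothelial cadherin. The 5 detected arterial markers ran from 3.79 ± 0.127 TPM for Gja5, an arterial gap junction gene, to 15 ± 1.22 TPM for Efnb2. All 7 pericyte markers were detected, with a median of 16.5 TPM, among them Pdgfrb at 9.64 ± 0.354 TPM, against 2.70 TPM for Notch3 and 5.03 TPM for Heyl. The summed endothelial level was 185 TPM in pup 2 and 164 TPM in pup 1, with 6 markers higher and 4 lower in pup 2 and a median log2 ratio of 0.13. The summed pericyte level was 310 TPM in pup 2 and 415 TPM in pup 1, most of it from Ndufa4l2 with 225.27 TPM in pup 2 and 324.38 TPM in pup 1, while the median log2 ratio of the list was 0.00, with 3 markers higher and 4 lower in pup 2. No marker of either list was at 0 counts. Which cells of the bladder made each Notch transcript was not measured.

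The start regions of the receptor and ligand genes were examined for sequence features. RefSeq windows (GRCm38.p6) from 250 bases before to 50 after the start were matched for 8 of the 10 genes, with a pair of windows for Dll1; none was matched for Hes1 and Heyl. The core letters bound by Rbpj, TGGGAA on either strand, were in 0 of these 9 windows and in 25.6% of 32851 windows of all genes, which says only that these letters are not in these windows. CpG pairs were counted in the 200 bases that end 51 bases before the start. Jag2 had 41, Notch2 26, Jag1 17, and the Dll1 windows 17 and 13. Dll4 had 12, Notch1 and Notch3 11 each, and Notch4 3, against a median of 4 over all genes. The windows of Notch2 and Notch4, the highest and lowest receptor by coding TPM, are shown on the plus strand with CpG pairs in capitals, since they also mark the receptor extremes of CpG content.
Notch2: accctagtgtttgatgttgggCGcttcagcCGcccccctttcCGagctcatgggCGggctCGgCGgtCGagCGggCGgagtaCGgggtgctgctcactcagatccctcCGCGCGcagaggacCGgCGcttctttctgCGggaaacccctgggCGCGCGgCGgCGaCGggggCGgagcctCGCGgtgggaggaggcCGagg
Notch4: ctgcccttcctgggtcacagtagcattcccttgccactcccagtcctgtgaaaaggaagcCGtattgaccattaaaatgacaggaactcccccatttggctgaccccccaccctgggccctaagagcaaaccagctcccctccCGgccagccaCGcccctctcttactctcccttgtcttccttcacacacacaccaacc
The windows are chr3:98013288-98013487 for Notch2 and chr17:34564045-34564244 for Notch4. With 4 receptors, no relation between CpG content and level was tested.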

How the data were processed

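The authors deposited 1 gene and 1 transcript table per library in RSEM layout, on mm10 with GENCODE M4 per the text listing of each sample. Which aligner, RSEM release and strand use applied is not given in the sources used here. Among the deposited values, expected counts are estimates that divide multi-mapped reads, the deposited TPM and FPKM are scaled per length and depth, the deposited percent of gene is a transcript's share of TPM, and the deposited posterior SD is a score of uncertainty in a count. For the gene counts of the 10 genes this SD was at most 0.845% of the count, so division of reads between genes added little error to them. Division between the transcripts of a gene was less certain, and gene TPM depends on it. The SD was 1.97 on 4.33 counts for Notch4-203 in pup 2 and 3.11 on 6.65 counts for Heyl-202 in pup 1.

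Identifiers were matched without version to GENCODE M21 on the same assembly. Expected counts were rounded and scaled by TMM in edgeR 4.0.16 (R 4.3.3) over genes averaging 20 counts or more, and intervals are Clopper-Pearson at 95%. Steps were tested on simulated counts. DESeq2 1.42.0 size factors, library size, TPM ratios, other thresholds, posterior means and leaving out either pup were alternatives; counting coding transcripts alone was added after the data were seen. Python 3.11.15 was used with pandas 2.3.3, numpy 2.4.6 and scipy 1.17.1. The 10 genes, the pathway and marker lists and the rule for named genes (all 10 genes, pathway genes by role, markers beside a result, transcripts with 10% or more of a gene) were chosen with earlier results of these data known. Genes that overlap one of the 10, and Notch4-211, were named after their values were seen. A pathway gene listed at the outset is not reported here.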

Additional observations from a re-analysis of the deposited data

How the results depend on the processing

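Of the 10 genes, all 10 were detected at 1 TPM, 10 at 0.5 TPM, 9 at 2 TPM (Dll1 dropped), 10 with posterior means and 9 by coding transcripts, and 10 with either pup alone. The count of detected further pathway genes was 43, with 45 at 0.5 TPM, 40 at 2 TPM, 42 by coding transcripts, and 43 to 44 with either pup alone. The count of genes 2-fold apart was 0 under all 6 alternatives, and the count whose interval excludes equal levels was 5 with DESeq2 size factors, which shifted every log2 ratio by -0.02, and with library size alone. Of the ratios whose interval excluded equal levels, that of Heyl reversed, to -0.11 as a ratio of TPM, -0.09 with 1 and -0.10 with 0.1 added to TPM. As ratios of TPM, Notch1 at 0.01 and Notch2 at -0.27 fell outside their intervals. Notch3 at -0.04, Jag1 at -0.07 and Dll4 at -0.03 changed sign in TPM but stayed inside theirs. Posterior mean TPM moved 5 of the 10 genes by more than the SD between pups. It raised Notch1 to 7.91 TPM in pup 2 and 8.10 TPM in pup 1, of which 3 TPM in pup 2 and 3.09 TPM in pup 1 lay in transcripts with 0 expected counts, Notch4 to 4.45 TPM in pup 2 and 3.68 TPM in pup 1, which put it above Dll4, and Dll1 to 2.44 TPM in pup 2 and 1.63 TPM in pup 1. The means of Dll4 and Heyl moved to 3.2 and 5.29 TPM, and the values of Heyl and Notch1 then no longer overlapped. No paired analysis was possible because both pups belong to 1 group. With 1 library per animal, animal, dissection and library cannot be told apart, and depth limits Notch4 and Dll1 most.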
